A study of Arabidopsis thaliana with 6 samples.

Results

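LTP1 (AT2G38540), LTP2 (AT2G38530), LTP3 (AT5G59320) and LTP4 (AT5G59310) are 4 Arabidopsis genes for non-specific lipid transfer proteins of type 1. They were taken from the 28775 genes of the deposited count table by their locus names, with attention to how far the wild-type libraries differ from each other, so they were chosen by their counts in these libraries. Non-specific lipid transfer proteins are small secreted proteins whose conserved cysteines hold a hydrophobic cavity that can bind fatty acids and other lipids. In shoots they are best known from the epidermis, the cell layer that makes the cuticle of wax and cutin, and their transcripts often change with drought, cold and pathogens. LTP3 and LTP4 are known as genes that respond to abscisic acid (ABA), the hormone of water deficit, and the ABA-responsive transcription factor MYB96 is known to activate LTP3.

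The study asked how a mutation in BRR2a changes transcripts. BRR2a is an RNA helicase of the U5 small nuclear ribonucleoprotein that unwinds U4 from U6 RNA when the spliceosome is activated. The brr2a-2 plants, labelled as the cao mutant, carry a missense mutation in BRR2a that is described as a partial loss of function, in the Columbia background after backcrossing, and Col plants are wild type for BRR2a. Total RNA depleted of ribosomal RNA was sequenced from 3 libraries of brr2a-2 and 3 libraries of Col, each labelled as a biological replicate, from untreated Col-0 plants grown side by side in short days for 15 days and harvested 1 h before dark. The labels give the tissue as rosette leaves and the study's methods speak of seedlings. Total gene counts were 18692830 to 23184873 in brr2a-2 and 19468030 to 29830638 in Col, and 40.1% to 46.4% of them fell in chloroplast genes. The leaf mesophyll markers RBCS1A, RCA, CAB3, LHCB2.1 and GAPA summed to between 8618 and 9539 CPM (the count scaled to a common library size by the trimmed mean of M-values) in brr2a-2 and between 4189 and 9811 CPM in Col, with the lowest sum in library Col 1. The root markers summed to at most 20.6 CPM and the flower markers to at most 2.73 CPM in any library, and the flower gene AP1 had no count outside Col 1.

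Library Col 1 stood apart from the other 5 libraries. In it, 35 of 24780 genes with at least 1 count were 10-fold or more above every other library, against 0 or 1 gene in each of the other libraries. LTP4 and LTP3 ranked first and second among these 35 genes. The differences of named genes are therefore given with and without it.

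The genes form a pair on each of 2 chromosomes of the TAIR10.1 assembly. LTP2 (chr2:16128176-16129399) and LTP1 (chr2:16130290-16131240) lie 890 bases apart on the plus strand, and LTP4 (chr5:23924990-23925957, minus strand) and LTP3 (chr5:23928954-23929816, plus strand) lie 2996 bases apart and are transcribed away from each other. Positions are from the RefSeq annotation. Each gene has 2 exons and 1 intron, no annotated gene overlaps any of them, and the coding parts hold 118 codons in LTP1 and in LTP2, 115 in LTP3 and 112 in LTP4. The coding sequences of LTP1 and LTP2 were identical at 82.4% of aligned positions and those of LTP3 and LTP4 at 84.5%, whereas pairs taken across the chromosomes were identical at 54.7% to 60.7%. The longest run that LTP3 and LTP4 transcripts share without a mismatch is the stretch of 44 coding bases printed here, because it is what could let a read of one gene count for the other.
LTP3 and LTP4 shared run: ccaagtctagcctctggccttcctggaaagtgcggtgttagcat
It is shorter than the sequenced reads. Of all 30-base runs in each transcript, 11 of 803 in LTP1, 11 of 1084 in LTP2, 29 of 740 in LTP3 and 36 of 801 in LTP4 occur elsewhere in the genome. Runs as long as the reads were not searched, so whether any part of a count is shared with another locus was not tested.

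The introns of LTP1 and LTP2 are shown because reads within them did not choose the genes, with the first and last 2 bases of each intron in capitals.
LTP1 intron, chr2:16130765-16130883, plus strand: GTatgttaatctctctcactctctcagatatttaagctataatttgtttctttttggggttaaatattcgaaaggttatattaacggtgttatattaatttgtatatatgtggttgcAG
LTP2 intron, chr2:16128828-16128938, plus strand: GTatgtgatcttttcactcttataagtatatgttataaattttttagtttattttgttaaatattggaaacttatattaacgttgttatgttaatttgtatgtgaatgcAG
These introns are short, 119 bases in LTP1 and 111 bases in LTP2, with 28.6% and 21.6% G and C. The introns of LTP3 and LTP4 have 94 and 138 bases with 29.8% and 30.4% G and C. All 4 begin with GT and end with AG.

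The 250 bases upstream of LTP3 and LTP4 are shown because these genes had the largest differences between libraries. Capitals mark a TATAAA match in LTP3, and in LTP4 a run of 29 bases that occurs 2 times.
LTP3 upstream, chr5:23928704-23928953, plus strand: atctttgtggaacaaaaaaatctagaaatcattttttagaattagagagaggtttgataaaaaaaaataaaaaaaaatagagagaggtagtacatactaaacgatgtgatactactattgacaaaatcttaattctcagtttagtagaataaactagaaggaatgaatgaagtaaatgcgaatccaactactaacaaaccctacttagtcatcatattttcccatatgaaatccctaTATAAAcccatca
LTP4 upstream, chr5:23925958-23926207, minus strand: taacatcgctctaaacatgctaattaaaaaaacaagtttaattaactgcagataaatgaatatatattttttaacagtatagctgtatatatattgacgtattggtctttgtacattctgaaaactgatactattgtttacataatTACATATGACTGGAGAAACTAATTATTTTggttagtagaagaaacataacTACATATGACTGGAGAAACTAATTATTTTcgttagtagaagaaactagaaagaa
The TATAAA match of LTP3 lies 13 to 8 bases before the annotated start, on the coding strand. Of 27443 windows of the same length upstream of nuclear protein-coding genes, 32.9% hold such a match on that strand. In LTP4 the copies of the 29-base run begin 104 and 54 bases before the start. The windows of LTP3 and LTP4 share no run longer than 9 bases. ACGTG, the core of the ABA-responsive element bound by bZIP factors, was found on neither strand of these windows, nor in the window of LTP1. LTP2 holds 1 match to ACGTG and 1 match to CCGAC, the core of the drought and cold element bound by DREB factors, and these letters occur on either strand in 22.9% and 12% of all such windows. In 1000 bases, ACGTG occurred 3 times upstream of LTP1, 1 time upstream of LTP2, 2 times upstream of LTP3 and 5 times upstream of LTP4, and 54.4% of all such windows hold at least 1. CCGAC occurred in 1000 bases upstream of LTP2 alone among the 4, with 3 matches, and in 37.4% of all windows. A match is a description of the letters only.

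LTP1, the most abundant of the 4 transcripts, was counted 3864, 4223 and 3213 times in brr2a-2, against 11580, 5743 and 4103 times in Col. These counts correspond to 178, 204 and 179 CPM in brr2a-2, against 350, 267 and 216 CPM in Col. Every brr2a-2 library lay below every Col library, and Col 1 was the highest. The mean was 187 ± 14.6 CPM in brr2a-2 and 278 ± 67.3 CPM in Col (SD, n = 3 each), and the fitted difference was -0.57 ± 0.22 on the log2 scale (edgeR, brr2a-2 over Col, ± SE). Since its counts chose the gene, this difference and its SE, which derives from the F statistic of the fit, are a description. No test is read from them. Of the 3 members that could be fitted, LTP1 was the one whose libraries did not overlap between genotypes, beside 10.2% of the 19121 genes tested that were lower in every brr2a-2 library and 10.8% that were higher, and nothing is read from that count. Without Col 1, the Col mean was 242 CPM and the difference -0.37 ± 0.19.

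LTP2 was counted 793, 827 and 1738 times in brr2a-2, against 1833, 460 and 1045 times in Col. Scaled for depth it stood at 36.6, 39.9 and 96.7 CPM in brr2a-2, against 55.4, 21.4 and 55.1 CPM in Col. The genotypes overlapped, with the highest value in brr2a-2 3 and the lowest in Col 2. The means were 57.7 ± 33.8 CPM in brr2a-2 and 44.0 ± 19.5 CPM in Col (SD, n = 3 each). The fitted difference, again a description with no test, was 0.39 ± 0.49. It was 0.59 ± 0.55 without Col 1, and leaving out 1 library at a time gave values between -0.20 and 0.64. LTP2 was the only one of the 4 that was not highest in Col 1.

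LTP3 was counted 9, 43 and 13 times in brr2a-2, against 4263, 6 and 7 times in Col. Its level was 0.415, 2.08 and 0.723 CPM in brr2a-2, against 129, 0.279 and 0.369 CPM in Col. A single Col library thus carried nearly all of the signal, while Col 2 and Col 3 lay below every brr2a-2 library. Of all LTP3 counts in the 6 libraries, 98.2% came from Col 1. The mean of 1.07 ± 0.883 CPM in brr2a-2 and 43.1 ± 74.2 CPM in Col (SD, n = 3 each) shows a wild-type SD larger than the mean. With all 6 libraries the fitted difference was -5.33 ± 2.20, and without Col 1 it was 1.71 ± 0.80. The value without Col 1 rests on 6 and 7 counts in Col against 9, 43 and 13 in brr2a-2. Only brr2a-2 2 and brr2a-2 3 had more than 10 counts there, so LTP3 passed that filter through brr2a-2 libraries. The sign of the fitted value thus changed with Col 1, and no direction is read from so few counts. DESeq2 gave LTP3 no p-value, as it did for 42 of 19121 genes (0.22%).

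LTP4 was counted 0, 0 and 1 times in brr2a-2, against 760, 0 and 0 times in Col. That is 0, 0 and 0.0556 CPM in brr2a-2, against 23.0, 0 and 0 CPM in Col. Col 1 held 99.9% of its counts. A count of 0 allows up to 3 counts, which is between 0.0906 and 0.167 CPM in these libraries, and this limit covers counting error only. Against it, LTP4 in Col 1 was at least 138-fold above every other library. LTP4 did not pass the filter on low counts, and no fold change between the genotypes was fitted for it. Outside Col 1, LTP4 was at or under that limit in all 5 libraries, so a difference between the genotypes was not detectable at this depth.

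**Figure D1:**
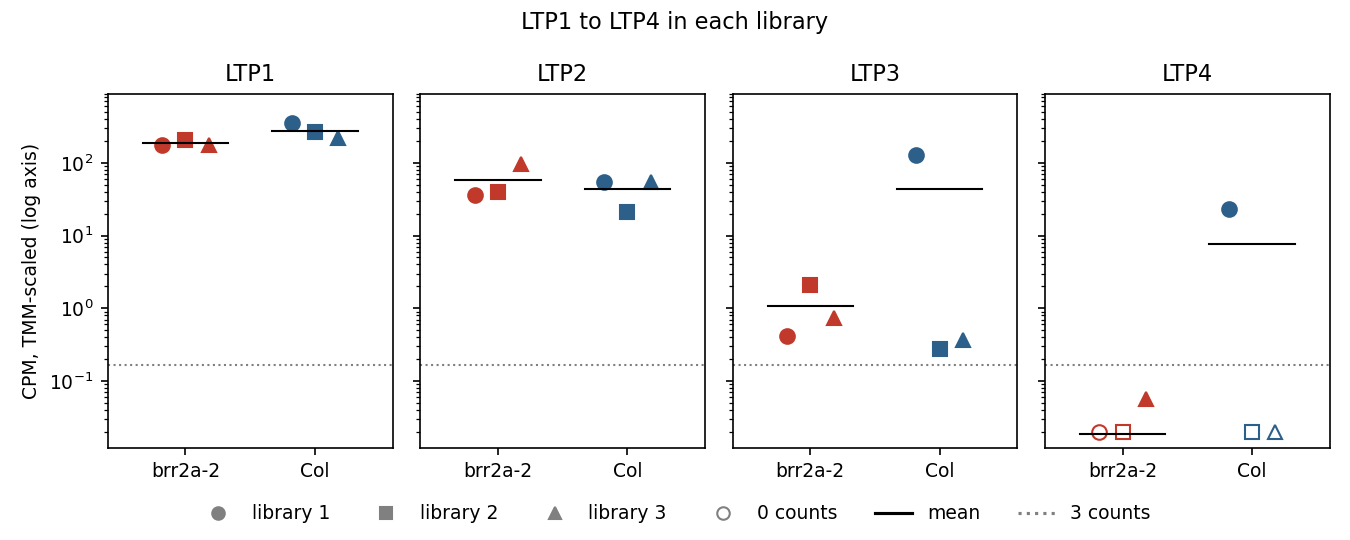
Level of LTP1 to LTP4 in each library, in CPM on a log axis, for 3 brr2a-2 libraries (red) and 3 Col libraries (blue). Horizontal lines are means, open symbols drawn near the bottom stand for 0 counts, and the dotted line is the level of 3 counts in the shallowest library. Col 1 (blue circle) stands at 129 CPM for LTP3 and 23.0 CPM for LTP4, whereas all other libraries lie at or under 2.08 CPM for both genes.

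Per kilobase of exon, the order of the 4 genes depended on the library. In 5 of the libraries LTP1 was followed by LTP2, then by LTP3 and LTP4 near 0. LTP1 stood at 214, 245 and 215 CPM per kilobase in brr2a-2, against 420, 321 and 260 in Col, and LTP2 at 32.9, 35.9 and 86.9 in brr2a-2, against 49.7, 19.2 and 49.5 in Col. The lowest LTP1 value lay above the highest LTP2 value, whereas LTP2 and LTP3 changed places in Col 1. In Col 1 LTP3 took the second place with 167 CPM per kilobase, above LTP2, and LTP4 reached 27.7 CPM per kilobase. LTP3 was then 6.05-fold above LTP4 per kilobase. Among 26939 nuclear genes ranked by CPM per kilobase, LTP1 was at rank 157, 115 and 133 in brr2a-2 and at rank 45, 105 and 122 in Col. LTP3 was at rank 160 in Col 1 and no higher than rank 12929 elsewhere. Together the 4 genes summed to 215, 246 and 276 CPM in brr2a-2, against 557, 289 and 272 CPM in Col, with LTP1 making up 64.7% to 82.9% of the sum in brr2a-2 and 62.8% to 92.5% in Col.

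The spread within the wild type separated LTP3 and LTP4 from LTP1 and LTP2. On the log2 CPM scale, the SD of LTP3 was 1.07 over the brr2a-2 libraries and 4.79 over the Col libraries, the highest Col value of all 19121 genes tested. LTP4, which was not among these genes, had an SD of 0.40 in brr2a-2 and 4.62 in Col. The SD of LTP2 was alike in the genotypes, 0.77 in brr2a-2 and 0.79 in Col. The SD of LTP1 was 0.11 in brr2a-2 and 0.35 in Col. The median SD over all genes tested was 0.24 in brr2a-2 and 0.32 in Col. In percentiles of those genes, LTP1, LTP2 and LTP3 were at 16.2, 93.8 and 97.6 in brr2a-2 and at 53.8, 87.9 and 100 in Col. The highest library was 4.996-fold above the lowest for LTP3 in brr2a-2 and 461-fold above it in Col. For LTP2 the same ratio was 2.64 in brr2a-2 and 2.59 in Col, and for LTP1 it was 1.14 in brr2a-2 and 1.62 in Col.

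**Figure D2:**
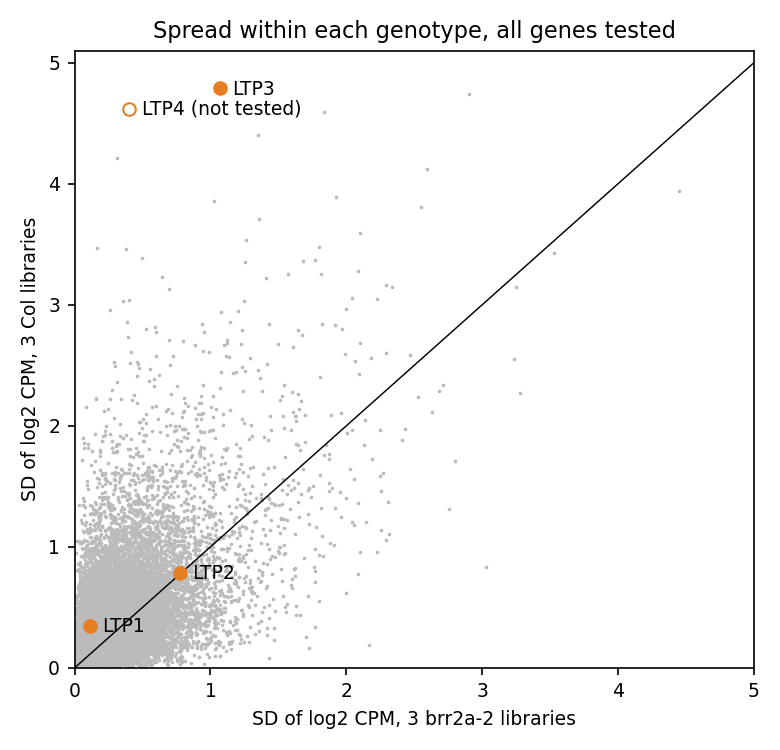
SD of log2 CPM over the 3 brr2a-2 libraries (x axis) and over the 3 Col libraries (y axis) for each of 19121 genes tested (grey), with LTP1 to LTP3 in orange and LTP4, which was not tested, as an open circle. LTP3 (1.07 and 4.79) has the highest Col value, and LTP2 (0.77 and 0.79) lies on the line of equal spread.

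LTP3 and LTP4 had alike patterns over the libraries, as a description over 6 points that share libraries and depth. Pearson's r of log2 CPM was 0.96 between LTP3 and LTP4, and 0.73 and 0.79 between LTP1 and each of them. LTP2 went with none of the other genes (r = -0.24 with LTP1, 0.25 with LTP3 and 0.25 with LTP4). Col 1 held nearly all counts of LTP3 and LTP4, and these correlations were not computed without it.

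The genes whose pattern was most like each member were named by the highest Pearson's r among all genes tested. For LTP3 they were AT2G41190, annotated as a transmembrane amino acid transporter family protein (r = 0.999), the uncharacterized AT1G54575 (r = 0.996) and RPT2a, a subunit of the proteasome's regulatory particle (r = 0.996). AT2G41190 had 69, 147 and 81 counts in brr2a-2, against 1484, 65 and 68 counts in Col, which repeats both the high Col 1 and the second place of brr2a-2 2 seen for LTP3. RPT2a had 963, 1032 and 808 counts in brr2a-2, against 2285, 898 and 801 counts in Col. Pearson's r does not measure the size of a difference, and that of RPT2a was far smaller than that of LTP3. For LTP4 they were BCA3, a beta carbonic anhydrase, the stress-induced F-box gene FBS1, and the plant defensin gene PDF2.1, all with r = 0.995 or 0.996 and all highest in Col 1. PDF2.1 had 17, 17 and 21 counts in brr2a-2, against 578, 20 and 12 counts in Col. For LTP1 they were NAGS1, an N-acetylglutamate synthase of arginine synthesis (r = 0.997), the alpha/beta-hydrolase gene AT3G47590 (r = 0.997) and the oxidoreductase gene AT5G20080 (r = 0.994). For LTP2 they were MYB1 (r = 0.995), the copper chaperone gene CCH (r = 0.994) and the permease gene AT5G49990 (r = 0.993). CCH had 1552, 1480 and 2988 counts in brr2a-2, against 3677, 953 and 1952 counts in Col, and scaled for depth it was highest in brr2a-2 3 and lowest in Col 2, as LTP2 was. By rank correlation 1 of the 3 genes of LTP2, 1 of the 3 of LTP3 and 0 of the 3 of LTP4 were still among the highest.

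The genes directly beside the pairs did not carry the Col 1 level. AT2G38550, next to LTP1, had 653, 673 and 519 counts in brr2a-2, against 1006, 896 and 637 counts in Col, and a difference of -0.21 ± 0.17 with all libraries and -0.30 ± 0.17 without Col 1. AT5G59330, a gene of the lipid transfer superfamily next to LTP3, had 0 counts in each brr2a-2 library and 4, 4 and 1 counts in Col. AT2G38510, next to LTP2, had at most 1 count in any library, and AT5G59305, next to LTP4, had none.

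The intron counts were not used in the choice of the genes, although the gene counts they are set against were. Introns are removed from transcripts by the spliceosome in which BRR2a acts, and reads within an intron can come from RNA in which it is still present. Other sources of such reads were not told apart. The LTP1 intron had 27, 40 and 27 counts in brr2a-2, against 24, 32 and 22 counts in Col. Per 1000 counts of the gene these were 6.99, 9.47 and 8.40 in brr2a-2, against 2.07, 5.57 and 5.36 in Col. The genotypes did not overlap (8.29 ± 1.25 in brr2a-2 and 4.34 ± 1.96 in Col, SD, n = 3 each). This ratio is given with no test, because its denominator is the gene count that chose LTP1. Among 95812 introns with at least 1 count in genes counted in every library, 16.7% were higher in every brr2a-2 library on this measure and 1.57% were lower in every one. These include introns with too few counts to be higher in every brr2a-2 library. The share among introns counted as often as that of LTP1 was not computed. Over all introns together the ratio was 45.0, 42.5 and 39.6 per 1000 in brr2a-2, against 35.7, 27.6 and 28.8 in Col (all introns of a gene are summed in it, and LTP1 has 1). An edgeR quasi-likelihood fit was made across 17214 introns, with each gene's own difference taken off. In it the LTP1 intron differed by 0.44 ± 0.41 on the log2 scale, and by -0.06 without Col 1. In that fit 33 introns were called higher (0.192%) and 10 lower (0.0581%) at a Benjamini-Hochberg adjusted p under 0.05 and a log2 difference of at least 1. It scaled libraries by TMM of the intron table, as did the fit of intron counts alone given below. A shift shared by most introns is therefore not in these values, and the median over introns tested was -0.09. With library sizes and TMM of the gene table, the LTP1 intron was at 1.05 ± 0.40. These LTP1 values also use the gene counts, so they are a description. With intron counts alone, which did not choose the gene, the LTP1 intron was at -0.13 ± 0.41 (edgeR adjusted p 0.913) with all libraries and at -0.43 ± 0.39 (edgeR adjusted p 0.663) without Col 1. It was not among the 80 introns called higher (0.465%) or the 19 called lower (0.11%) when no gene difference was taken off.

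The LTP2 intron had 5, 5 and 3 counts in brr2a-2, against 1, 0 and 1 counts in Col. These were 6.31, 6.05 and 1.73 per 1000 counts of the gene in brr2a-2, against 0.546, 0 and 0.957 in Col. The ratios were 4.69 ± 2.57 in brr2a-2 and 0.501 ± 0.480 in Col (SD, n = 3 each), again as a description. They did not overlap between genotypes, but the nearest libraries differ by 3 counts in brr2a-2 3 against 1 count in Col 3. Of all introns compared in this way, 16.7% were higher in every brr2a-2 library and 1.57% lower, and nothing is read from the separation. The counts were too few for the intron to enter the test across introns. The introns of LTP3 and LTP4 had 0 counts in all brr2a-2 libraries, and 1 count each in Col 1 and 0 in Col 2 and Col 3. With 4263 LTP3 and 760 LTP4 counts in Col 1, the intron made up 0.235 and 1.32 per 1000 counts of the gene there.

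**Figure D3:**
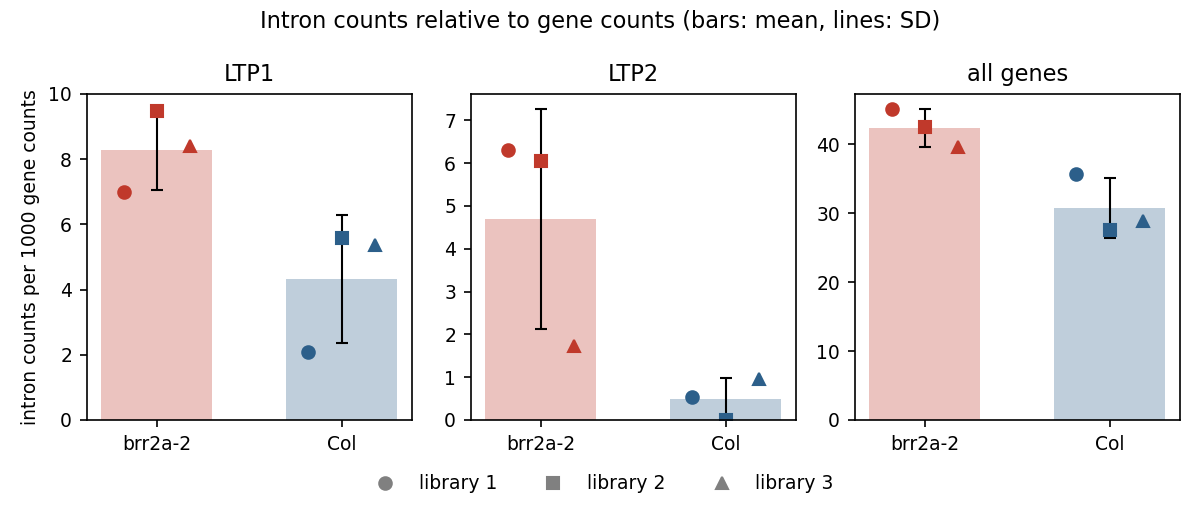
Intron counts per 1000 gene counts for the introns of LTP1 and LTP2 and over all introns and genes, in 3 brr2a-2 libraries (red) and 3 Col libraries (blue), each panel with its own axis from 0. Bars are means and lines are SD (n = 3 each). The LTP1 means are 8.29 in brr2a-2 and 4.34 in Col, and no brr2a-2 library overlaps a Col library in any panel. The LTP2 ratios rest on at most 5 intron counts per library, and 16.7% of introns compared were higher in every brr2a-2 library.

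The other members of the family showed how far the pattern of LTP3 and LTP4 extended. Of 8 other type 1 lipid transfer protein genes, 5 passed the filter, and none was called at an adjusted p under 0.05 and a log2 difference of at least 1, as was none of all 19121 genes tested (0% called higher and 0% called lower by edgeR, with 1326 higher and 1428 lower at an unadjusted p under 0.05, that is 6.93% and 7.47%). With DESeq2 there were 243 calls upward and 176 downward. LTP6 stood at 2.58, 3.62 and 3.78 CPM in brr2a-2, against 24.5, 6.42 and 2.80 CPM in Col, a difference of -1.76 ± 0.73 (edgeR adjusted p 0.333) that was -0.48 ± 0.39 without Col 1. It was the only one of the 5 with an unadjusted p under 0.05. AT2G18370 (-0.99 ± 0.80) and AT5G01870 (-0.60 ± 0.54) were also highest in Col 1 and had values of 0.26 and 0.32 without it. LTP5, the most abundant of the 5, had 95.9, 95.2 and 78.3 CPM in brr2a-2, against 103, 83.4 and 122 CPM in Col, a difference of -0.20 ± 0.20 with or without Col 1 (-0.20 ± 0.22). LTP7 was at -0.07 ± 0.25 with all libraries and at -0.22 ± 0.25 without Col 1. AT2G15325, AT4G33355 and LTP12 had at most 0.264 CPM in any library and were not tested. The median difference of the 5 genes was -0.60 with all libraries and -0.20 without Col 1, beside -0.04 and -0.01 over all genes tested.

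Genes that make and export the cuticle's lipids did not share the high Col 1 level. Of 10 tested genes of wax synthesis and export, 0 were called, 1 was lower at an unadjusted p under 0.05, and the median difference was -0.30. Over all genes tested, 7.47% were lower and 6.93% higher at that threshold, and the median was -0.04. The largest differences among the wax genes were those of CER2 (-0.57 ± 0.46), CER10 (-0.42 ± 0.20) and PAS2 (-0.39 ± 0.15). CER2 takes part in the elongation of very-long-chain fatty acids, and CER10 and PAS2 encode enzymes of that elongation. Without Col 1 they were at -0.92, -0.49 and -0.40. Of 13 tested genes of cutin synthesis 0 were called and 0 had an unadjusted p under 0.05, with HTH at -0.64 ± 0.34, DCR at -0.52 ± 0.36 and the fatty acid hydroxylase gene CYP86A2 at -0.40 ± 0.30. Without Col 1 these were at -0.81, -0.49 and -0.60, and other libraries moved them as far, HTH to -0.13 and DCR to -0.22 without Col 2, and CYP86A2 to -0.017 without Col 3. Without Col 1, 2 wax genes and 2 cutin genes had an unadjusted p under 0.05, all with lower values in brr2a-2, and 0 were called. At that threshold 7.43% of all genes tested without Col 1 were lower and 8.13% higher. In each of these lists 1 gene was highest in Col 1, beside 24.4% of all genes tested. Among 6 tested regulators of the cuticle, 0 were called and 0 had an unadjusted p under 0.05. They included MYB96 at 15.7, 18.005 and 20.03 CPM in brr2a-2, against 27.2, 16.7 and 21.4 CPM in Col (-0.28 ± 0.22, edgeR adjusted p 0.584), and the AP2-type factor SHN2 (-0.79 ± 0.39) and MYB16 (0.54 ± 0.41). Without Col 1, MYB96 was at -0.09, SHN2 at -0.64 and MYB16 at 0.19. MYB96 in Col 1 was 1.27-fold above the next library, beside 62.0-fold for LTP3. Of 10 tested genes for GPI-anchored and other lipid transfer proteins, 0 were called, with EARLI1 at -1.21 ± 0.75, AT4G12490 at -0.74 ± 1.00 and LTPG5 at -0.55 ± 0.55, all 3 highest in Col 1. Without Col 1 they were at -0.45, -0.06 and 0.40. The other 7 tested genes of this list were not highest in Col 1, and the median over the list was 0.946 times the median of the other 5 libraries.

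The epidermis markers ATML1, PDF2, PDF1, FDH and ACR4 summed to 455, 489 and 496 CPM in brr2a-2, against 390, 739 and 664 CPM in Col, lowest in the library where LTP1, LTP3 and LTP4 were highest. With all 6 libraries, all 5 were lower in brr2a-2, with 0 at an unadjusted p under 0.05, 0 called and a median of -0.27. At that threshold 6.93% of all genes tested were higher and 7.47% lower. Without Col 1, all 5 were again lower, with a median of -0.49, and 3 had an unadjusted p under 0.05 with 0 called. There 8.13% of all genes were higher and 7.43% lower. The median marker in Col 1 was at 0.734 times the median of the other 5 libraries, beside 0.429 times for the leaf mesophyll markers. In bulk leaves fewer epidermal cells and less RNA per cell cannot be told apart, and the part of these markers in the LTP1 difference was not tested.

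Genes of the response to ABA, drought and cold had the same high library as LTP3 and LTP4. Of 12 such genes, all tested, 11 were highest in Col 1, beside 24.4% of all genes tested, with a median of 7.85 times the median of the other 5 libraries, beside 1.02 times over all genes tested, 3.11 times over the 5 other type 1 genes, and 0.812 and 0.845 times over the wax and cutin genes. All 12 had values below 0 for brr2a-2 over Col, 5 with an unadjusted p under 0.05 and 0 called, with a median of -1.75. Of all 19121 genes tested, 10313 were below 0, 7.47% were lower at that threshold, and the median was -0.04. Without Col 1, 7 of 12 were below 0, 2 with an unadjusted p under 0.05, and the median was -0.20. Of all 19248 genes tested without Col 1, 9725 were below 0, 7.43% were lower at that threshold, and the median was -0.01. KIN1, a small stress-induced protein, had 1.94, 5.21 and 3.45 CPM in brr2a-2, against 98.5, 3.91 and 1.48 CPM in Col, with Col 1 highest and brr2a-2 2 second as for LTP3, and its difference was -3.30 ± 1.44 with all libraries and 0.38 ± 0.54 without Col 1. COR15A, a chloroplast protein of cold acclimation, was at -3.33 ± 1.26 and -1.12 ± 0.80 without Col 1. Its paralog COR15B had 28.7, 35.0 and 28.0 CPM in brr2a-2, against 402, 147 and 46.4 CPM in Col, with no overlap. Its difference of -2.70 ± 0.70 had an adjusted p of 0.214 by edgeR and 0.00132 by DESeq2, and without Col 1 it was -1.66 ± 0.43. KIN2, named after its values were seen, was the only other gene of this list that DESeq2 called (adjusted p 0.0376). By edgeR KIN2 was at -2.12 ± 0.74 with all libraries and at -0.67 ± 0.21 without Col 1. COR15B and KIN2 were the 2 of these 12 genes that were lower in every brr2a-2 library, beside 10.2% of all genes tested. DESeq2 gave KIN1 and RD29B of this list no p-value, as for LTP3, so it could not call them. The ABA synthesis gene NCED3 was at 3.92, 9.36 and 6.84 CPM in brr2a-2, against 28.3, 5.03 and 3.48 CPM in Col. What set Col 1 apart was not tested.

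**Figure D4:**
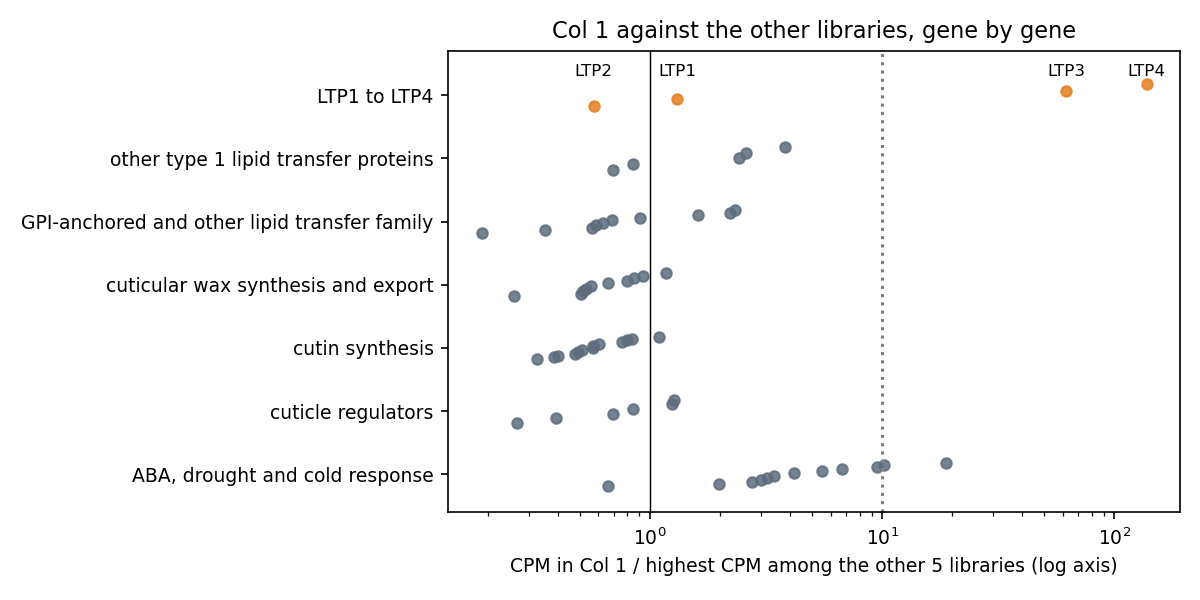
CPM in Col 1 divided by the highest CPM among the other 5 libraries, on a log axis, for LTP1 to LTP4 (orange, LTP4 against the level of 3 counts) and for the tested genes of each list (grey). The solid line is equality and the dotted line is 10-fold. LTP3 (62.0) and LTP4 (at least 138) lie beyond every listed gene, of which KIN1 (18.9) comes next.

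**Figure D5:**
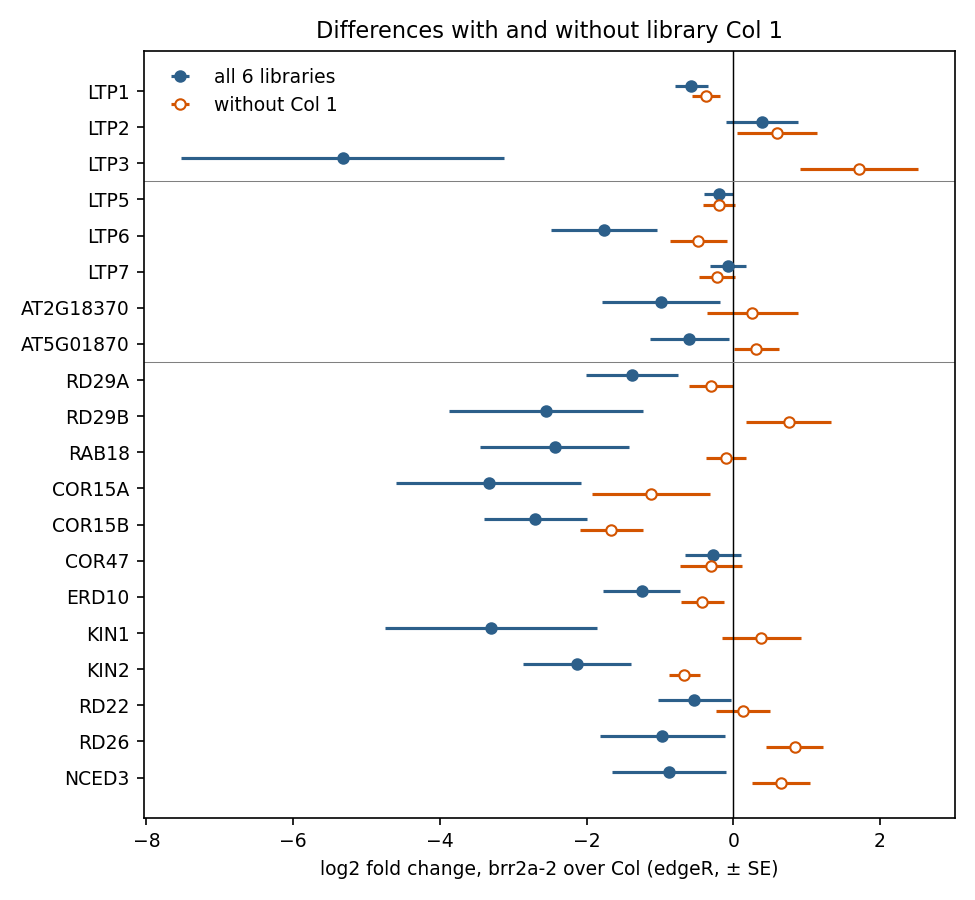
Log2 fold change of brr2a-2 over Col with its SE (edgeR) with all 6 libraries (filled, blue) and without Col 1 (open, orange) for LTP1 to LTP3, the 5 tested other type 1 genes and 12 genes of the ABA, drought and cold response. LTP3 is at -5.33 with and 1.71 without Col 1, and LTP1 is at -0.57 with and -0.37 without it. The LTP3 value without Col 1 rests on few counts.

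Beyond these lists, the 35 genes that were 10-fold or more above all other libraries in Col 1 held AT2G37870, another gene of the lipid transfer superfamily (32.4-fold), CSLG2 of the cellulose synthase family (at least 52.9-fold), the jasmonate response genes JAZ7 (19.7-fold) and VSP1 (10.2-fold), and the ABA response gene RAB18 (10.15-fold). These genes were named after their values were seen. LTP1, with a ratio of 1.31, and LTP2, with 0.573, were not among them.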

How the data were processed

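Per the labels and the study's methods, the authors trimmed reads with Trimmomatic 0.32, mapped them with TopHat2 to TAIR10 and counted them with HTSeq per gene and per intron. Whether counting used strand is not given in the sources used here. The deposited values are raw counts in 3 brr2a-2 and 3 Col libraries. Members and gene lists were chosen with earlier results of these data known. The named genes are LTP1 to LTP4, all other type 1 genes, the 3 largest differences of each other list, the 3 genes most correlated with each member, and direct neighbours.

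Genes and introns were filtered with filterByExpr (minimum count 10), scaled by TMM and fitted by the quasi-likelihood test of edgeR 4.0.16 (limma 3.58.1, R 4.3.3) on genotype alone, with Benjamini-Hochberg adjustment over all features tested. Intron fits carried the gene's log2 fold change (prior count 2) as an offset. Each SE given with a fitted difference was the size of that difference divided by the root of the edgeR test's F statistic. It therefore carries the information of that test, and for LTP1 to LTP4 it is a description only. DESeq2 1.42.0 was an alternative. Replicates differed by far more than sampling noise (chi-square per gene 27.3 to 113), and p-values measure the spread between these libraries. The tests were tried on simulated counts. The intron fit takes the gene's fold change as known, so its p-values leave out the error of that fold change, and introns were also fitted without it. Upstream and intron sequences, exon lengths and motif counts were read from the RefSeq annotation of TAIR10.1 with Biopython 1.88. Protein sequences were not used here.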

Additional observations from a re-analysis of the deposited data

How the results depend on the processing

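With 3 libraries per genotype and 1 library far from the rest, the LTP3 and LTP4 levels of the wild type are not fixed by these data, and intron counts of LTP2 to LTP4 are near 0. For genes, the 0 called higher and 0 called lower became 243 and 176 with DESeq2, 2 and 1 with genes of at least 1 count, 5 and 4 with 1 RUVg factor, and 0 to 1 in each direction when 1 library was left out (1 and 1 without Col 1). For introns, the 33 called higher became 80 without the gene correction (104 with Col 1 left out as well, an alternative added after seeing the data), 81 with DESeq2, 673 with library sizes and TMM of the gene table, 189 with introns of at least 1 count, and 0 to 37 with 1 library left out. The 10 called lower became 19 without the gene correction (38 with Col 1 left out as well), 49 with DESeq2, 136 with introns of at least 1 count, and 0 to 44 with 1 library left out. The cause of these changes was not tested.

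Same-numbered libraries did not all deviate together (r = 0.04, 0.19 and 0.42), so the numbers were not taken as pairs, and only 1 of 3 brr2a-2 libraries was most like the Col library of its own number. With a replicate block 17 introns were called lower, and no other count of calls moved by more than 1.5 times. LTP3 was at -1.50 ± 2.69 with the block and -3.13 ± 1.50 with 1 RUVg factor, and KIN1 at -1.01 ± 1.54 and -1.62 ± 1.02.

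The LTP1 intron was at -0.13 without the gene correction (-0.43 with Col 1 left out as well). With library sizes and TMM of the gene table it was at 1.05 ± 0.40, and with 1 library left out between -0.062 and 0.77. LTP3 ranged from -6.25 to 1.71 with 1 library left out. COR15B passed the threshold with DESeq2 alone. Other log2 differences that changed sign when 1 library was left out ranged from -0.22 to 0.13 for LTP7, -1.64 to 0.26 for AT2G18370, -0.92 to 0.32 for AT5G01870, -0.89 to 0.40 for LTPG5, -0.92 to 0.10 for CER2, -3.83 to 0.38 for KIN1, -0.033 to 0.27 for MYB1, -0.27 to 0.48 for CCH, -0.047 to 0.20 for AT5G49990, -2.30 to 0.58 for AT2G41190, -1.32 to 0.33 for AT1G54575, -0.26 to 0.14 for RPT2a, -1.86 to 0.040 for BCA3, -1.88 to 0.060 for FBS1 and -3.30 to 0.23 for PDF2.1. With Spearman's rho, 1 of the 3 genes most like LTP2, 1 of LTP3 and 0 of LTP4 stayed.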
